A study of Mus musculus with 22 samples.

Results

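Runx1, Runx2, Runx3, Cbfb and Sp7 were followed through the conversion of mouse pluripotent stem cells into osteoblast cultures. They are the 5 genes whose symbols match the Runx family, its shared partner subunit and osterix (the protein of Sp7), and all 5 are among the 18632 genes found in all 3 of the authors' comparison tables. The cells carried Col2.3GFP, which expresses green fluorescent protein from part of a type I collagen promoter and so lights up cells of the osteoblast lineage. The undifferentiated groups, at day 0, were embryonic stem cells (ESC, 3 samples, passage 20 to 30) and induced pluripotent stem cells (iPSC, 2 samples, passage 10 to 20), which are somatic cells returned to pluripotency. The differentiated groups were osteoblast cultures from ESC (ESC-OB, 3 samples), GFP-positive cells sorted from such cultures (ESC-OB GFP+, 3 samples) and osteoblast cultures from iPSC (iPSC-OB, 2 samples), all at 35 to 40 days. Per the labels' protocols, the cells spent 6 days as embryoid bodies without LIF, PD0325901 and CHIR99021, were given retinoic acid at 0.1 µM between day 3 and day 5, and then went into osteogenic medium. Stem cells were grown on fibroblast feeders or without feeders, and RNA was taken with a standard or an ultra-low-input kit. The labels assign neither the medium nor the kit to samples and do not say whether replicates were separate cultures, so p-values measure only the spread between these samples, which may be technical.

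Runx proteins are transcription factors that bind DNA through the runt domain, and Cbfb is the subunit, without DNA binding of its own, that strengthens this binding for all of them. Runx2 is required for osteoblast formation, Sp7 acts downstream of it in the same lineage, Runx1 is best known for blood formation and is also present in skeletal progenitors and cartilage, and Runx3 is known from lymphocytes, sensory neurons and cartilage. Runx2 and Sp7 together activate matrix genes such as Col1a1, Ibsp and Bglap.

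The start sites of the Runx genes share a stretch of sequence, shown here because it holds the family's own binding motif. In RefSeq's windows of 300 bases (250 before to 50 after a start site, build GRCm38.p6), 4 of the 5 genes had an entry, with 6 windows among them. The capitals below mark ACCACA, which is TGTGGT read on the opposite strand, the core of the Runx motif. The 30 bases of Runx1 lie at chr16:92826025-92826054 on the minus strand, those of Runx2 at chr17:44814583-44814612 on the minus strand, and those of Runx3 at chr4:135120503-135120532 on the plus strand.
Runx1: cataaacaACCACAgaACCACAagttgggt
Runx2: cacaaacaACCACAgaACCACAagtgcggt
Runx3: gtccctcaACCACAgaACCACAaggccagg
The run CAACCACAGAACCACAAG, 18 bases long, was identical in the 3 genes and was present in 4 of 32841 windows, those of Runx1, Runx2, Runx3 and Gm16225. TGTGGT was searched on both strands and was present in 16.8% of all windows, and in 1.81% of them at least 2 times. The pair lies after the start site in Runx1 and Runx2 and before it in Runx3, and Runx2 holds 3 matches in its whole window. The windows at the downstream start sites of Runx1 and Runx3, and the window of Cbfb, hold 0 matches to TGTGGT.

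The Cbfb window differs from them in composition, and 60 bases of it are shown with GGGCGG, the GC box bound by Sp factors, in capitals. They lie at chr8:105170596-105170655 on the plus strand, just before the start site.
Cbfb: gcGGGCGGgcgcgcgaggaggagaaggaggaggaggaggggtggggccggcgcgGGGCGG
GGGCGG occurred 4 times in the Cbfb window, 3 times at the downstream start site of Runx3 and 0 times in the other windows of the Runx genes, against 35.7% of all windows with at least 1. CACCC, found in 57.5% of all windows, occurred 3 times in Cbfb and 3 times at the upstream start site of Runx3. TGCGGT was found in 6.46% of all windows and once in that of Runx2, and TATAA in 24.9% of all windows and in 0 of the 6. These are matches of letters only.

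The authors' tables give comparisons and no values per sample. Levels in CPM (counts scaled to a total of 1000000) were estimated for each group from the base mean (the authors' mean normalised count over all libraries of a fit) and the fold changes. The base means also held the depth of the libraries, 4.49 to 30.1 M reads in the ESC fit and 10.1 to 17.7 M in the iPSC fit, and, for genes with few reads, the whole-number reads of each library. Libraries are named by depth within their group, since none could be tied to a labelled sample. On the iPSC side 3 libraries were found, where the labels list 2 samples. The sorted cells were sequenced to 22.4 to 30.1 M reads, more deeply than any ESC (4.49 to 19.5 M) or ESC-OB library (6.72 to 11.5 M). The sign of the deposited changes was set from the pluripotency genes Pou5f1, Nanog and Esrrb, strongly negative in all 3 tables, so a positive change means higher in the differentiated cells. In bulk RNA, fewer cells of a type and less RNA per cell cannot be told apart.

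Runx1 and Runx2 rose in all 3 comparisons, Runx3 and Sp7 rose in the sorted cells, and Cbfb fell in both ESC comparisons. In the authors' deposited table for ESC-OB against ESC, 2 of the 5 genes rose and 1 fell at a DESeq2 adjusted p under 0.05, where 38.6% of all genes tested rose and 31.0% fell (69.6% either way). For ESC-OB GFP+ against ESC the deposited table had 4 higher and 1 lower, against 39.1% and 32.4% of all genes (71.5% either way). For iPSC-OB against iPSC it had 2 higher and 0 lower, against 26.1% and 23.1% (49.2% either way). The share of genes called was high throughout, so that a call alone sets a gene little apart, and the size of a change says more. Both ESC comparisons share their ESC libraries and are not independent of each other.

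**Figure D1:**
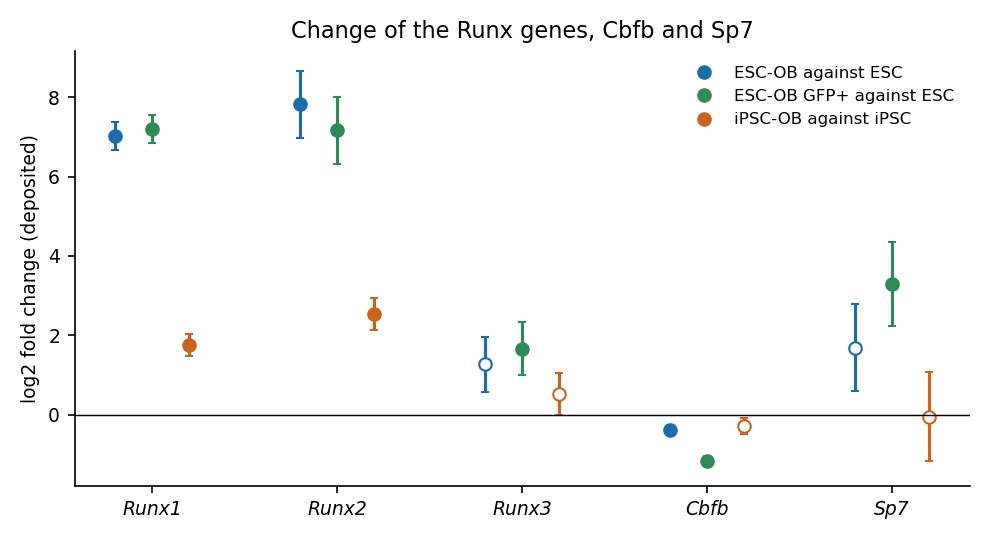
Log2 fold changes from the authors' deposited tables (vertical axis) of the 5 genes (horizontal axis) in the 3 comparisons, with bars for the standard error. Filled points have an adjusted p under 0.05: Runx1 and Runx2 are filled in all 3 comparisons, and the iPSC-OB points of both lie well under their ESC-OB points.

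Runx2, the determinant of the osteoblast lineage, went from the edge of detection to a clear level in the ESC series. Its estimated level was 0.105 CPM in ESC, 25.5 CPM in ESC-OB and 16.8 CPM in the sorted cells. The ESC value stands for about 3 reads over the 3 libraries, at the level of 0.102 CPM that 3 reads are worth, so its ratio to ESC-OB is poorly bounded. The ratio of the levels was 243, with a 95% Poisson interval of the ESC reads that allows 85.9 to 1220. For the sorted cells the ratio was 160.5, with 56.6 to 803. These intervals cover counting error only. By the authors' deposited tables the DESeq2 adjusted p was 1.25e-19 for ESC-OB and 8.99e-17 for the sorted cells. Of all genes tested in the deposited ESC-OB table, 2.41% had a larger rise than Runx2.

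Sorting on the collagen reporter did not shift Runx2 by an amount this test resolves. The change in sorted cells minus that in the whole culture was -0.66 on the log2 scale (95% interval -3.00 to 1.69, adjusted p = 0.847, z test on the deposited changes, Benjamini-Hochberg over all genes). The interval spans both a lower and a higher level in the sorted cells. It is too wide, because both changes share the ESC libraries and their covariance was left out. The error of about 3 shared ESC reads of Runx2 thus enters it. With part of that covariance allowed for, the adjusted p was 0.639 (z test).

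In the iPSC series Runx2 started higher and ended near the same level. The estimated level was 2.71 CPM in iPSC and 16.3 CPM in iPSC-OB. Reads could be worked out for every library: 43, 24 and 23 in the deepest, middle and shallowest iPSC libraries, and 308 and 133 in the deeper and shallower iPSC-OB libraries. Divided by the size factors, this is 40.5, 25.1 and 27.1 in iPSC and 213.6 and 161.5 in iPSC-OB. The groups did not overlap, and both iPSC-OB libraries were high. The log2 change in the authors' deposited table was 2.54 ± 0.40 (SE, DESeq2 adjusted p = 1.17e-09), and 9.23% of genes had a larger rise. The change was smaller than in ESC-OB (iPSC-OB minus ESC-OB, -5.29 ± 0.93 SE on the log2 scale, 95% interval -7.12 to -3.46, adjusted p = 2.82e-07, z test). In the difference between those comparisons, 2 of the 5 genes passed, both of them lower, against 17.2% of all genes lower and 11.0% higher (28.2% either way). Separate normalisation of the ESC and iPSC tables means that levels set across them carry no test.

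**Figure D2:**
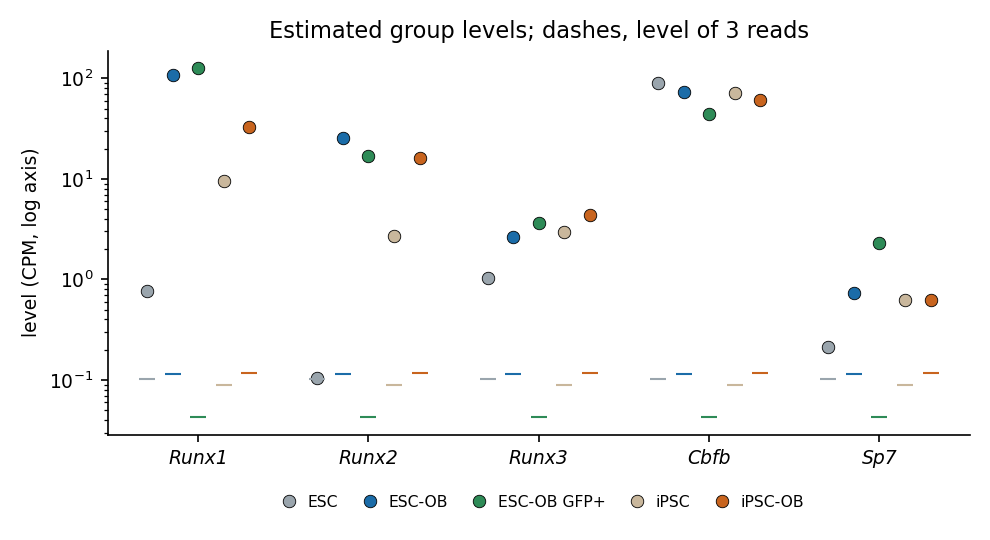
Estimated level of each gene in CPM (vertical axis, log scale) in the 5 groups (colours), with a dash at the level that 3 reads over the group are worth. Runx2 in ESC sits on its dash at 0.105 CPM, Cbfb lies between 44.1 and 89.1 CPM in every group, and Sp7 reaches 2.33 CPM at most.

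Runx1 had the highest level of the Runx genes in all 3 differentiated groups. It was 0.772 CPM in ESC, 107 CPM in ESC-OB and 126 CPM in the sorted cells. About 23 ESC reads lay behind the first value, and the ratio to ESC-OB was 138.7 (91.5 to 217 by the counting error of the ESC reads). In the authors' deposited tables the log2 change was 7.01 ± 0.35 (SE, DESeq2 adjusted p = 5.09e-88) in ESC-OB and 7.20 ± 0.35 (adjusted p = 2.5e-93) in the sorted cells. The sorted cells and the whole culture differed by 0.18 on the log2 scale (95% interval -0.78 to 1.15, adjusted p = 0.903, z test). This cautious test did not separate the difference from 0.

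In iPSC, Runx1 was already at 9.54 CPM, and it rose to 33.2 CPM in iPSC-OB. The reads were 128, 107 and 87 in the deepest, middle and shallowest iPSC libraries, and 624 and 270 in the deeper and shallower iPSC-OB libraries. As normalised reads they were 120.5, 111.9 and 102.3 against 432.8 and 327.9. Whole-number solutions also occurred by accident at so high a base mean, and trust in the reads of Runx1 therefore rests on the deposited fold change and on a limited spread inside groups. For this reason nothing is read from the separation of the groups or from how close their libraries lie. The log2 change in the authors' deposited table was 1.75 ± 0.27 (SE, DESeq2 adjusted p = 1.65e-09). It was smaller than in ESC-OB (iPSC-OB minus ESC-OB, -5.26 ± 0.44 SE, 95% interval -6.13 to -4.39, adjusted p = 6.19e-30, z test).

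Levels of osteoblast and stromal markers also differed between the series. The summed level of 12 osteoblast and stromal markers was 328 CPM in ESC and 972 CPM in iPSC, and 8007 CPM in ESC-OB, 15540 CPM in the sorted cells and 4462 CPM in iPSC-OB. Most of the ESC sum was Alpl, which also marks pluripotent cells, so that sum does not measure stromal cells. Col1a1, the main collagen of bone, was at 10.3 CPM in ESC and 404.6 CPM in iPSC. The undifferentiated iPSC libraries thus held more Runx1, Runx2 and collagen RNA than the ESC libraries did, by estimates from separately normalised tables. Feeder fibroblasts are named in the protocol for both kinds of stem cell, and their part in these levels was not tested.

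Runx3 was the weakest of the 3 in its response. Its level was 1.03 CPM in ESC, 2.65 CPM in ESC-OB, 3.63 CPM in the sorted cells, 2.99 CPM in iPSC and 4.41 CPM in iPSC-OB. In the authors' deposited tables it rose in the sorted cells (1.66 ± 0.67 SE, DESeq2 adjusted p = 0.0199), and the value for ESC-OB was 1.27 ± 0.69 (adjusted p = 0.0887). The sorted cells and the whole culture differed by 0.39 (95% interval -1.49 to 2.27, adjusted p = 0.891, z test), so the pass in one and the miss in the other do not separate them. For iPSC-OB the authors' deposited table gives 0.51 ± 0.53 (DESeq2 adjusted p = 0.437). The iPSC reads were 48, 36 and 19, and the iPSC-OB reads were 92 and 31, or 45.2, 37.6 and 22.3 against 63.8 and 37.7 after normalisation. The groups overlapped: the shallower iPSC-OB library lay among the iPSC libraries.

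The make-up of the Runx transcripts changed accordingly. Per kilobase of exon, Runx3 made up 73.0% of the summed level of the 3 genes in ESC, Runx1 22.8% and Runx2 4.22%. In ESC-OB, Runx1 made up 72.3%, Runx2 23.4% and Runx3 4.3%, and in the sorted cells 80.0%, 14.5% and 5.51%. In iPSC the shares were 46.7% Runx1, 18.1% Runx2 and 35.2% Runx3, and in iPSC-OB 50.3%, 33.6% and 16.1%. Runx1 was therefore the most abundant Runx transcript per length in every group other than ESC, where Runx3 was. Runx1 and Runx2 were each less abundant than Cbfb per length in every group. These shares are estimates with no test, and those of ESC rest on about 23 reads of Runx1, 3 of Runx2 and 30 of Runx3.

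**Figure D3:**
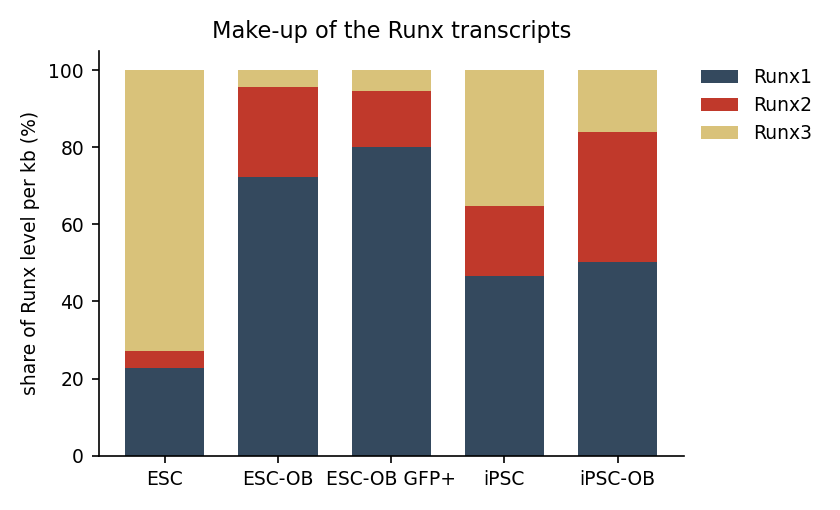
Share of each Runx gene in the summed Runx level per kilobase of exon (vertical axis, percent) in the 5 groups. Runx3 fills 73.0% of the ESC bar and 4.3% of the ESC-OB bar, and Runx2 has its largest share, 33.6%, in iPSC-OB.

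Cbfb, the common partner, was abundant before differentiation and fell in the ESC series. Its level was 89.1 CPM in ESC, 73.1 CPM in ESC-OB and 44.1 CPM in the sorted cells, and 71.5 CPM in iPSC and 60.9 CPM in iPSC-OB. In the authors' deposited tables the log2 change was -0.39 ± 0.12 (SE, DESeq2 adjusted p = 0.0026) in ESC-OB, -1.17 ± 0.12 (adjusted p = 7.91e-22) in the sorted cells and -0.28 ± 0.20 (adjusted p = 0.253) in iPSC-OB. Reads per library were not searched for Cbfb, whose base means lay above the limits set for the search. The summed level of the Runx genes relative to Cbfb, per kilobase of exon, was 0.011 in ESC, 0.587 in ESC-OB, 1.04 in the sorted cells, 0.0827 in iPSC and 0.313 in iPSC-OB. Partner RNA exceeded the summed Runx RNA in all groups other than the sorted cells, where the estimates were close to equal.

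Cbfb was the only one of the 5 genes that passed the test for a different change in sorted cells and whole culture. The difference was -0.79 ± 0.17 (SE, 95% interval -1.12 to -0.45, adjusted p = 5.45e-05, z test), and 12.1% of all genes passed as lower and 10.7% as higher in the same comparison (22.8% either way). The others had larger standard errors, 0.49 to 1.51, and the intervals of Runx2, Runx3 and Sp7 in this comparison include the value of Cbfb. These errors include that of the shared ESC libraries, so the intervals are too wide. The cofactors Ep300 and Yap1 and the Sp factor Sp1 were lower there too. Ep300, a histone acetyltransferase that Runx proteins recruit, differed by -1.57 ± 0.23 (adjusted p = 1.56e-10, z test), Yap1, a transcriptional coactivator of the Hippo pathway, by -1.85 ± 0.14 (adjusted p = 5.43e-40), and Sp1, the founding Sp factor, by -2.43 ± 0.22 (adjusted p = 3.86e-26). The sorted libraries were also the deepest, and the part of depth or kit in these differences was not tested.

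Sp7, which marks commitment to the osteoblast, stayed at a low level in every group. It was 0.213 CPM in ESC, 0.737 CPM in ESC-OB, 2.33 CPM in the sorted cells and 0.623 CPM in both iPSC and iPSC-OB. The ESC reads were 5, 0 and 1 in the deepest, middle and shallowest libraries, the ESC-OB reads were 6, 10 and 3, and the sorted reads were 12, 22 and 118. After normalisation the ESC libraries held 3.05, 0 and 2.66 reads, the ESC-OB libraries 6.21, 12.2 and 5.32, and the sorted libraries 4.75, 10.3 and 62.8. Trust in these reads rests largely on the deposited fold changes, as given below, so nothing is read from the separation of the groups. By these reads, 2 of the 3 sorted libraries were no higher than the highest ESC-OB library. The shallowest sorted library held 80.7% of the normalised sorted reads.

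Sp7 rose in the sorted cells, in the authors' deposited table, by 3.29 ± 1.05 (SE, DESeq2 adjusted p = 0.00293), and the value for ESC-OB was 1.69 ± 1.09 (adjusted p = 0.155). The log2 ratio of the mean normalised reads, sorted cells over ESC, was 3.77 with all libraries and 1.98 without the shallowest sorted library. If these reads hold, the deposited rise in sorted cells rests largely on 1 library. Sorted cells and whole culture differed by 1.60 (95% interval -1.37 to 4.57, adjusted p = 0.585, z test). The reads of Sp7 in the ESC fit are less certain than those of genes with fewer reads: base means shifted by a trace also had a whole-number solution in 9 of 10 trials, though in 0 of 10 with both fold changes within 0.5 (log2) of the deposited ones.

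Among the sorted libraries, Bglap and Dlx5 were highest in the shallowest one, as Sp7 was by its less certain reads. So were some genes of other lineages. The reads given here are not scaled for depth. Bglap, the osteoblast matrix protein osteocalcin, had 0 reads in each ESC library, 4, 19 and 1 in the ESC-OB libraries and 2, 2 and 29 in the sorted libraries, the last of them the shallowest. Dlx5, a homeobox factor upstream of Runx2 and Sp7, had 0 reads in each ESC library, 0, 3 and 0 in ESC-OB and 0, 8 and 31 in the sorted libraries. After normalisation the mean of Bglap was higher in ESC-OB (9.71) than in the sorted cells (5.72). That of Dlx5 was lower in ESC-OB (1.22) than in the sorted cells (6.7). Hapln1, a cartilage gene, had 2, 10 and 38 reads in the deepest, middle and shallowest sorted libraries, and Tyrobp, a myeloid gene, 13, 18 and 34. Wnt10b, a Wnt ligand that favours bone formation, went the other way with 10, 3 and 0 reads, and Tnfsf11, the osteoclast factor RANKL, had 0, 40 and 35. These 4 genes were chosen after their values were seen, and the part of other cells in the Sp7 reads of that library was not tested.

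In iPSC-OB the Sp7 reads lay in 1 library only. The deeper iPSC-OB library had 20 reads and the shallower 0, and the iPSC libraries had 7, 5 and 9. Normalised, this is 13.9 and 0 against 6.59, 5.23 and 10.6, so the iPSC-OB libraries lay on either side of the iPSC libraries. The authors' deposited table gives a log2 change of -0.05 ± 1.13 (SE, DESeq2 adjusted p = 0.977), an average of 2 unlike libraries. The 0 in the shallower library allows up to 3 reads, which are worth 3.64 normalised reads. Bglap followed the same division, with 41 and 1 reads in the deeper and shallower iPSC-OB libraries and 0, 1 and 1 in iPSC. Mmp13, a collagenase and direct Runx2 target, had 947 and 3 reads, against 16, 6 and 7 in iPSC. Dlx5 had 36 and 0 reads, against 3, 0 and 0. Runx2 lay above the iPSC range in both iPSC-OB libraries. Sp7 lay above it in the deeper one alone and by a small margin, and its groups overlapped. The division was not particular to bone genes. Trp63, a factor of epithelial progenitors, had 195 and 12 reads in the deeper and shallower iPSC-OB libraries, and Hapln1, a cartilage matrix protein, had 100 and 2. Neurog2, a factor of neural progenitors, had 72 and 3, and Cebpa, a myeloid and fat cell factor, had 186 and 11. These 4 genes were chosen after their values were seen.

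**Figure D4:**
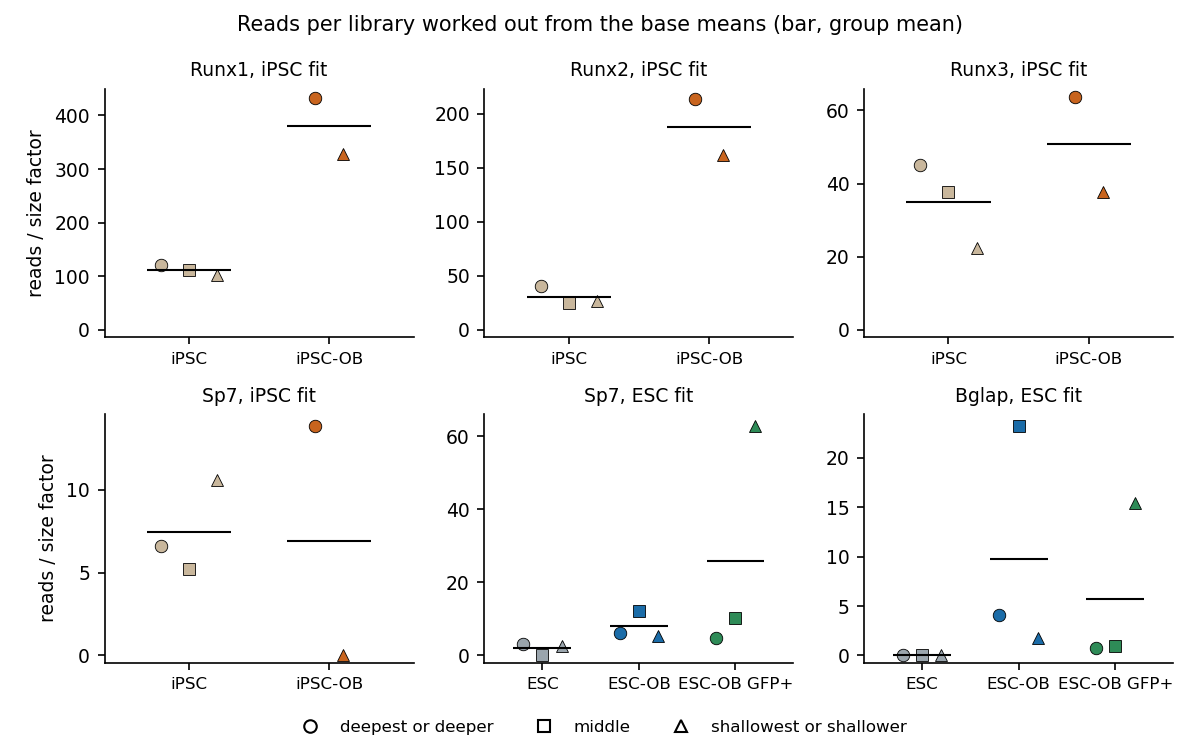
Reads per library divided by the size factor (vertical axis, each panel with its own scale), worked out from the base means, for Runx1, Runx2, Runx3 and Sp7 in the iPSC fit and for Sp7 and Bglap in the ESC fit. Each point is 1 library, its shape gives its rank in depth, and bars are group means: both iPSC-OB libraries are above iPSC for Runx2, while Sp7 stands at 13.9 and 0, and 1 sorted library stands at 62.8 for Sp7. The reads of Runx1, and of Sp7 in the ESC fit, are less certain than the others.

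The genes known as targets of Runx2 or Sp7 in bone mostly rose, with Col1a2 and Mmp13 at the top in both ESC comparisons. Of the 22, the authors' deposited tables called 14 higher and 2 lower in ESC-OB, 15 and 2 in the sorted cells, and 13 and 3 in iPSC-OB. Their median log2 change was 3.25, 3.51 and 2.01, beside 0.26, 0.28 and 0.15 for all genes tested. Of all genes tested, 38.6%, 39.1% and 26.1% were higher and 31.0%, 32.4% and 23.1% lower, in the same order. Col1a1 rose by 7.87 ± 0.32 (SE, DESeq2 adjusted p = 8.52e-133) in ESC-OB and by 1.62 ± 0.46 (adjusted p = 0.00144) in iPSC-OB in the deposited tables. Ibsp, bone sialoprotein, was estimated at 0.762 CPM in ESC, 16.7 CPM in ESC-OB, 577.6 CPM in the sorted cells, 4.21 CPM in iPSC and 112.7 CPM in iPSC-OB. Its larger change in sorted cells than in whole culture, 5.05 ± 2.25, did not pass (adjusted p = 0.0929, z test). Alpl, the alkaline phosphatase that marks both early osteoblasts and pluripotent cells, fell in all 3 deposited tables, by 4.93 ± 0.69 in ESC-OB (DESeq2 adjusted p = 3.93e-12). Its estimated level was 307.9 CPM in ESC and 10.9 CPM in ESC-OB. Spp1, osteopontin, fell in ESC-OB by 1.61 ± 0.31 (adjusted p = 4.98e-07) in the deposited table.

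**Figure D5:**
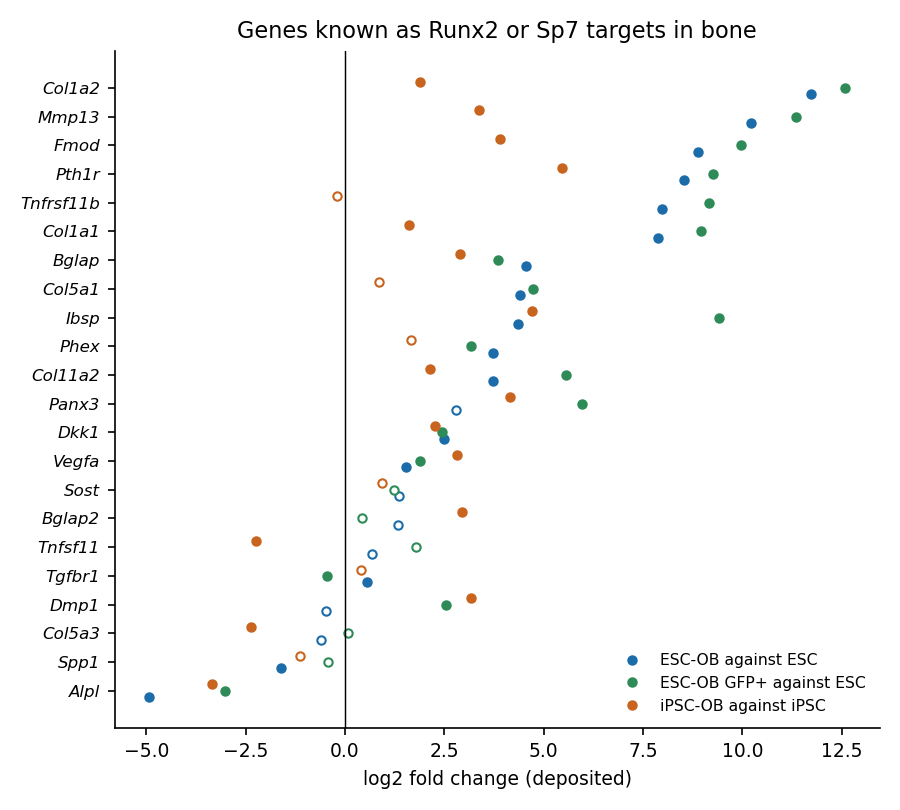
Log2 fold changes from the authors' deposited tables (horizontal axis) of the 22 genes known as Runx2 or Sp7 targets in bone (vertical axis, ordered by ESC-OB) in the 3 comparisons. Filled points have an adjusted p under 0.05: Col1a2 and Mmp13 are at the top, Alpl lies under 0 in all 3 comparisons, and the iPSC-OB points of the top genes lie to the left of the others.

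Most factors that restrain Runx2 or Sp7 rose. Of 13, the deposited tables called 12 higher and 1 lower in both ESC comparisons, and 9 and 1 in iPSC-OB, with median changes of 4.29, 4.21 and 1.66. The shares of all genes tested were 38.6%, 39.1% and 26.1% higher and 31.0%, 32.4% and 23.1% lower. Twist1, which binds the runt domain and blocks Runx2, rose by 4.42 ± 0.41 (SE, DESeq2 adjusted p = 3.56e-26) in ESC-OB and by 1.43 ± 0.51 (adjusted p = 0.0119) in iPSC-OB in the deposited tables. Sox9 rose by 8.79 ± 0.93 (adjusted p = 2.39e-20) in ESC-OB, and the 1 that fell was Lef1, a Wnt effector, by 2.49 ± 0.44 (adjusted p = 2.84e-08) in that deposited table. Lef1 lay outside the rule for named genes and was singled out after its values were seen.

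Of 17 genes upstream of Runx2 or Sp7, the deposited tables called 11 higher and 1 lower in ESC-OB, 12 and 2 in the sorted cells, and 5 and 0 in iPSC-OB (medians 1.57, 1.69 and 0.46). Fgfr2, a growth factor receptor whose signal acts on Runx2, rose by 3.00 ± 0.20 (SE, DESeq2 adjusted p = 4.8e-48) in ESC-OB and by 1.27 ± 0.45 (adjusted p = 0.0107) in iPSC-OB in the deposited tables. Of 18 coactivators and cooperating factors, 10 were higher and 4 lower in ESC-OB, 6 and 7 in the sorted cells, and 6 and 5 in iPSC-OB. Among all genes tested, 38.6%, 39.1% and 26.1% were higher and 31.0%, 32.4% and 23.1% lower, in the same order. The coactivator counts in the sorted cells and iPSC-OB lay near these shares and say little about that list.

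Of 16 corepressors, 7 were higher and 7 lower in ESC-OB, 8 and 7 in the sorted cells, and 4 and 5 in iPSC-OB by the deposited tables. Tle3, a Groucho corepressor, stood at -0.16 ± 0.15 (SE, DESeq2 adjusted p = 0.333) in ESC-OB and fell by 1.17 ± 0.15 (adjusted p = 9.32e-15) in the sorted cells in the deposited tables. Of 8 ubiquitin ligases that act on Runx2, 2 rose and 2 fell in ESC-OB, 2 and 5 in the sorted cells, and 1 and 2 in iPSC-OB. Smurf1, which marks Runx2 for degradation, rose in all 3 deposited tables, by 1.29 ± 0.16 (adjusted p = 9.56e-16) in ESC-OB and 1.42 ± 0.43 (adjusted p = 0.00254) in iPSC-OB. It was the 1 ligase called higher in iPSC-OB. Among the 9 Sp factors, Sp7 included, 2 rose and 4 fell in ESC-OB, 2 and 7 in the sorted cells, and 0 and 3 in iPSC-OB. Beside these counts, 38.6%, 39.1% and 26.1% of all genes tested rose and 31.0%, 32.4% and 23.1% fell. The corepressor counts lay near these shares, and the ligase counts in ESC-OB and iPSC-OB lay near or under them. They say little about those lists.

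The genes tied to Runx1 in blood were divided. Of its target and partner genes in blood, the deposited tables called 5 of 15 higher and 3 lower in ESC-OB, 5 and 5 of 15 in the sorted cells, and 1 and 1 of 16 in iPSC-OB. Over all genes tested, 38.6%, 39.1% and 26.1% were higher and 31.0%, 32.4% and 23.1% lower, in the same order. The counts lay near these shares in the ESC comparisons and under them in iPSC-OB. Csf1r, a macrophage receptor, rose by 8.17 ± 0.80 (SE, DESeq2 adjusted p = 1.9e-23) in ESC-OB in the deposited table. Spi1, which encodes the myeloid factor PU.1, stood at -1.46 ± 0.76 (adjusted p = 0.0735) in ESC-OB in the deposited table. Ptprc, the pan-leukocyte marker CD45, was estimated at 0.357 CPM in ESC-OB, 0.0812 CPM in the sorted cells and 2.10 CPM in iPSC-OB. The summed level of 13 measured blood markers was 305 CPM in ESC, 86.7 CPM in ESC-OB, 133 CPM in the sorted cells, 57.9 CPM in iPSC and 95.9 CPM in iPSC-OB, and 7, 5 and 3 of them rose and 2, 2 and 1 fell in the 3 comparisons. The median log2 change of these markers in ESC-OB was 4.02. The lower sum there went with Laptm5, a lysosomal protein of blood cells, which alone was at 279 CPM in ESC and 8.10 CPM in ESC-OB and was, with Cd3e, one of the 2 that fell.

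Markers of other cells that express Runx genes were also counted. Of 12 epithelial markers, the deposited tables called 9 higher in ESC-OB, 10 in the sorted cells and 8 in iPSC-OB and 2, 1 and 4 lower, and their summed level was 682, 3022, 7486, 1487 and 2109 CPM in ESC, ESC-OB, sorted cells, iPSC and iPSC-OB. Of 11 measured cartilage markers, 8, 7 and 5 rose and 2, 2 and 1 fell, with summed levels of 39.6, 91.2, 112.6, 42.9 and 76.8 CPM in the same order. Of 8 sensory neuron markers, 3, 4 and 2 rose and 2 fell in each comparison. Their summed levels were 11.6, 84.9, 47.3, 16.0 and 13.8 CPM in the same order of groups. Of all genes tested, 38.6%, 39.1% and 26.1% rose and 31.0%, 32.4% and 23.1% fell. The sensory neuron counts lay near these shares and say little about that list. Of 12 osteoblast and stromal markers, 10 rose in each comparison and 1, 2 and 1 fell, and of 8 pluripotency markers, 8, 8 and 7 fell. The part of epithelial, cartilage and neural cells in the levels of the Runx genes was not tested.

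The genes closest to each of the 5 were taken by their distance in the 3 deposited log2 changes, among 13760 other genes with a base mean of at least 10 (13761 for Sp7). Closest to Runx2 were Adamtsl1 (distance 0.144), Pcdhb16 (0.368) and Gucy1a3 (0.37), and 4 genes lay within 0.5. Closest to Runx1 were P4ha3 (0.341), Ptgs1 (0.452) and Tceal3 (0.453), also with 4 genes within 0.5. Closest to Sp7 were Pdlim7 (0.126), Spint2 (0.263) and G530011O06Rik (0.273), with 12 genes within 0.5. Runx3 had 196 genes within 0.5, led by Pced1a, Tmem63a and Tmem260, and Cbfb had 245, led by Smg6, Zfp874b and Rptor. Few genes shared the pattern of Runx1 or Runx2, and many shared those of Runx3 and Cbfb, whose changes were small.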

How the data were processed

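By the labels, messenger RNA sequencing of 13 of the 22 samples lies behind the 3 tables used, in 5 of 8 groups. The base means held 3 libraries on the iPSC side, where the labels list 2 samples. Calvarial osteoblasts and bone cells were not analysed here. The submitters' processing notes name STAR 2.4.2a, R 3.2.2, DESeq2 and the build mm9, and give neither their roles nor a design. Per the file headers, the authors deposited for each gene a base mean (a signal, the mean of counts over size factors), the log2 fold change and its error, a test score, and the p-value before and after adjustment. Files held 0 columns of single samples, so no count test was run. Deposited log2 changes are shrunken, which understates those of genes with few reads.

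The 5 genes, the gene lists and the tests were chosen with earlier results of these data known. Named genes were the 5, their 3 nearest genes, up to 4 genes of highest ESC-fit base mean in each list, and a set of defining genes, 1 of which is not reported here. Differences between changes were tested by z (SE as the root of the summed squares) with Benjamini-Hochberg adjustment over all genes. For sorted cells minus whole culture this left out the covariance from the shared ESC libraries. Those standard errors are therefore too large, their intervals too wide and the test cautious. Group levels in CPM were computed without Rn45s, with exon lengths from GENCODE. The floor was 3 reads over a group and intervals were 95% Poisson intervals.

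Reads per library were worked out after the tables had been seen. A base mean is a sum of whole reads times the value of 1 read in each library. These values came from low base means and gave 9 libraries (ESC fit) and 5 (iPSC fit), and each library was put in a group by the deposited folds of genes seen in no other library. All 1790 (ESC fit) and 1456 (iPSC fit) low base means had 1 solution. Whole-number searches then gave 1 solution for 28 of 31 listed genes in the ESC fit and 67 of 67 in the iPSC fit, where the tolerance was widened after a first run had left 8 genes without one. Of these, Runx1, Runx2, Mmp13, Twist1, Msx2, Csf1r and Sox9 were added by hand after their values were seen. Recovered group ratios had the sign of the deposited fold in 40 of 40 cases with a log2 change of at least 1, leaving out genes with accidental solutions in the trials below. The search did not use the fold of the gene. The grouping of libraries did use the signs of deposited folds, so the check is not fully independent of them. Base means shifted by a trace had a solution in 0 of 10 trials for Runx2, 0 of 20 for Runx3 and 0 of 20 for Sp7 in the iPSC fit, in 0 of 5 each for Mmp13, Twist1 and Msx2, and in 0 of 10 for Bglap in the ESC fit. They had one in 3 of 5 for Csf1r and 1 of 5 for Sox9, whose reads are not printed. For Runx1 (iPSC fit) they had one in 5 of 5 trials, in 2 of 5 within 0.5 (log2) of the deposited fold. Within 0.05 of that fold and a 2-fold spread inside groups, Runx1 had 1 solution and 0 of 20 shifted values had any. For Sp7 in the ESC fit the control is given beside the result. Runx1, Runx2, Runx3 and Cbfb in the ESC fit, and Cbfb in the iPSC fit, had base means above the limits set for the search and were not searched. The shared promoter stretch and the Cbfb window were picked after the sequences were seen. Read recovery and the test of differences (Python 3.11.15, numpy 2.4.6, scipy 1.17.1, pandas 2.3.3) were tested on simulated data. Recovery was simulated for 5 libraries and low base means only. The 9 libraries of the ESC fit and base means as high as that of Runx1 were not simulated.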

Additional observations from a re-analysis of the deposited data

Results flagged for a closer look

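For 3 results the change of a gene differed between comparisons by a test of the difference itself (z test on the deposited changes, Benjamini-Hochberg adjusted over all genes). The change of Cbfb was lower in the sorted ESC-OB GFP+ cells than in ESC-OB by 0.79 on the log2 scale (-0.785, adjusted p = 5.45e-05). The changes of Runx1 and Runx2 were smaller in iPSC-OB than in ESC-OB, with differences of -5.26 (adjusted p = 6.19e-30) and -5.29 (adjusted p = 2.82e-07). Shrinkage of the deposited changes, which differs between separately fitted tables, was not tested as a part of these differences.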

How the results depend on the processing

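Each comparison was repeated with an adjusted p under 0.01, with genes of a base mean of at least 10, without a filter, re-centred on the median gene (0.19, 0.21 and 0.06 in ESC-OB, sorted cells and iPSC-OB) and against a null of a log2 change of at most 1. The count of the 5 genes called stayed within 1.5 times, other than in the sorted cells, where 2 of 5 passed the null of at most 1 (adjusted p = 0.0704 for Sp7, 0.602 for Runx3 and 0.308 for Cbfb). Cbfb in ESC-OB was also lost under that null, and Runx3 in the sorted cells at 0.01. The tested differences of Cbfb, Runx1 and Runx2 passed in all alternatives run, with adjusted p from 1.49e-09 to 5.45e-05 for Cbfb. With Rn45s in the total, 24 of 25 levels lay above 3 reads, against 25, the exception being Runx2 in ESC. With 2 and 2 libraries assumed in the iPSC fit, Runx1 in iPSC was 8.17 CPM. Leaving out each library in turn, an alternative chosen after seeing the data, moved the log2 ratio of Sp7 reads between 1.98 and 4.29 in the sorted cells and between 1.47 and 2.58 in ESC-OB. In iPSC-OB it moved between -0.31 and 0.89, with no value without the deeper library. It moved between 2.39 and 2.85 for Runx2 and between 0.10 and 0.86 for Runx3 in iPSC-OB. No paired analysis was possible because the tables hold comparisons with no columns of single samples. With 2 or 3 libraries a group, about 3 reads of Runx2 in ESC and 6 of Sp7, depth limits how well the size of these changes is known.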
